A study of Mus musculus with 10 samples.

Results

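Mitochondrial chaperones and proteases are the nuclear-encoded proteins that fold newly imported polypeptides in the organelle and degrade those that are damaged or in excess. The 10 genes chosen here are Hspd1, Hspe1, Hspa9, Trap1, Lonp1, Clpp, Clpx, Afg3l2, Yme1l1 and Htra2, and they were found as the probes of the deposited array table that carry 1 of these symbols. Of the 10 genes 9 had such a probe, 14 probes in all among 25697 probes and 18138 symbols. Lonp1, the matrix ATP-dependent Lon protease, had no probe under its symbol or its listed synonyms, and it was not analysed here. All 9 genes with a probe passed the filter on dim probes, through 13 of their 14 probes.

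Ileum RNA was compared between 5 mice of the genotype iPGC-1β and 5 wild-type mice, all FVB/N animals aged 3 to 4 months that the series describes as littermates. In this field the name iPGC-1β is used for mice that overexpress PGC-1β, a transcriptional coactivator of mitochondrial genes, in the intestinal epithelium; the promoter that drives the transgene is not stated in the labels. Each array measured 1 tissue sample holding every cell type of the ileum, so that fewer cells of a type and less RNA per cell cannot be told apart. Values are log2 intensities after background correction and quantile normalization, differences are iPGC-1β minus wild-type, and a gene was called where limma's p-value, adjusted by the Benjamini-Hochberg method over the 9365 genes tested, was under 0.05.

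Polypeptides enter the mitochondrial matrix unfolded, pulled through the inner membrane by an Hsp70 motor, and many then fold inside the chamber formed by the Hsp60 and Hsp10 chaperonin. Proteases of the AAA family, which use ATP to unfold their substrates, clear proteins from the matrix and from both faces of the inner membrane. In cultured mammalian cells, an excess of unfolded protein in the matrix raises Hspd1, Hspe1 and Clpp through a pathway named the mitochondrial unfolded protein response.

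On all arrays together, 12370 to 12771 probes were detected, and the median intensity ranged from 131.1 to 143.3 on iPGC-1β arrays and from 127.7 to 155.1 on wild-type arrays. The Ppargc1b probe, for the gene that encodes PGC-1β, was called lower in iPGC-1β ileum, at -0.61 ± 0.19 (SE) on the log2 scale (limma's adjusted p = 0.0452). Ppargc1a, also read as a check of the labels, was called lower too, at -0.96 ± 0.22 (SE; limma's adjusted p = 0.0106). A Ppargc1b probe need not read a transgene. Directions therefore rest on the arrays as labelled. Across all tested genes 925, or 9.88%, were called higher in iPGC-1β ileum and 694, or 7.41%, were called lower, and the median difference was -0.05.

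Of the 9 chaperone and protease genes tested, 4 rose in iPGC-1β ileum: the Hsp70 chaperone Hspa9, the Hsp90 chaperone Trap1, the matrix peptidase Clpp and the inner-membrane protease Afg3l2. None fell by limma's test, and none was lower at an unadjusted p under 0.05, where 6 of the 9 were higher, against 1427 of all tested genes, or 15.2%. The 4 rises lay between 1.43-fold and 1.78-fold. All 9 differences were above 0, from 0.14 to 0.83 with a median of 0.52, against 4142 of the 9365 tested genes above 0. Groups did not overlap, with every iPGC-1β array above every wild-type array, for 5 of the 9 genes, against 8.66% of all tested genes. The plot of differences with their intervals sets the 9 genes beside their partners and the other proteases of the organelle.

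**Figure D1:**
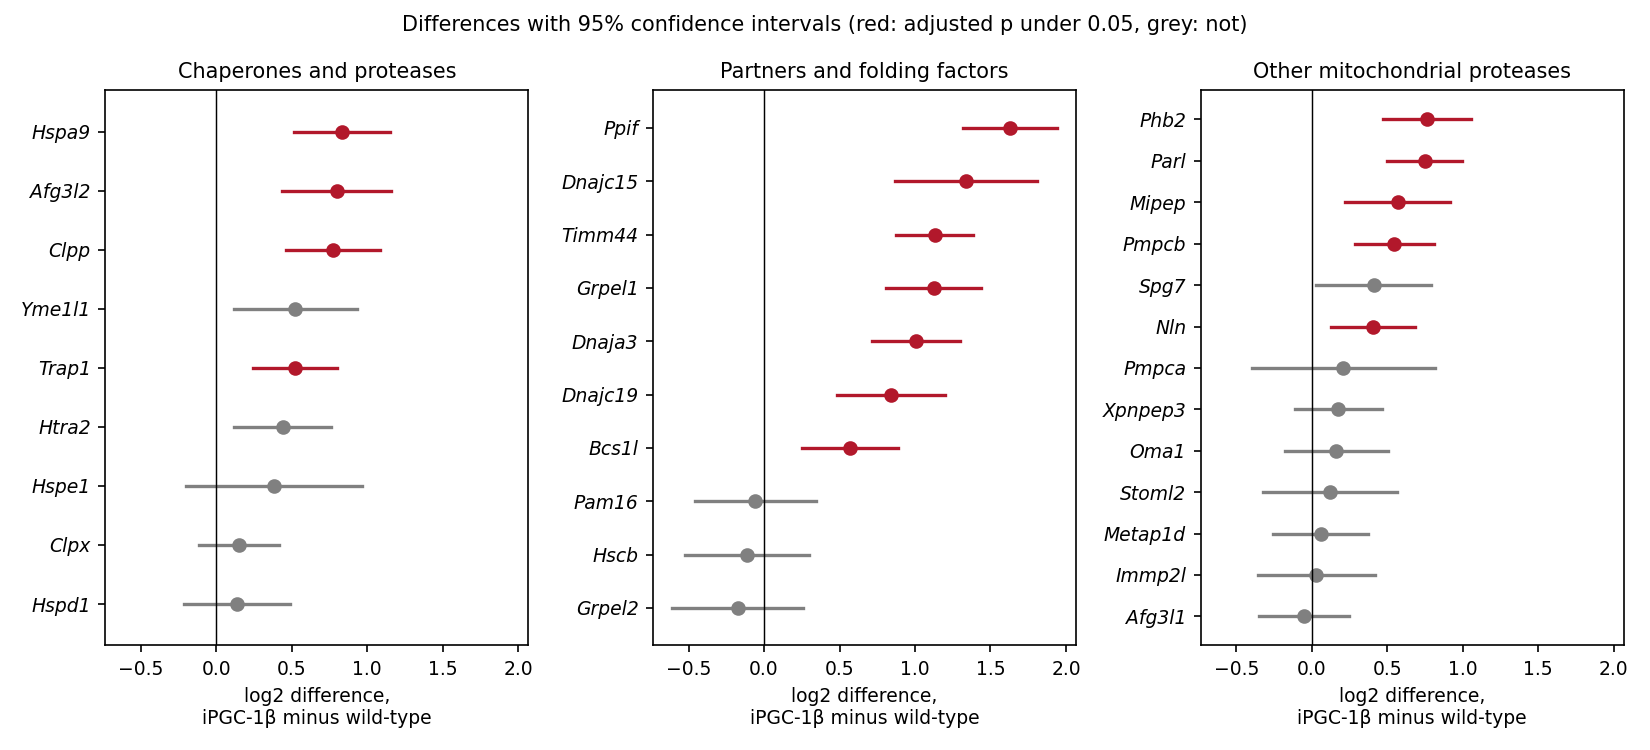
Log2 difference, iPGC-1β minus wild-type (horizontal axis), of each tested gene of the 9 chaperones and proteases, the 10 partners and folding factors and the 13 other mitochondrial proteases, 1 panel for each list; points are limma's estimates, lines are 95% confidence intervals, red marks genes called higher and grey the rest. Hspa9, Afg3l2, Clpp and Trap1 are red in the first panel, while the intervals of Hspe1, Clpx and Hspd1 include 0.

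Hspa9, also called mortalin, is the matrix Hsp70 that drives import and helps build iron-sulfur clusters. Its brighter probe read 12.90, 13.40, 13.35, 13.13 and 12.89 on the iPGC-1β arrays, against 12.43, 12.33, 11.99, 12.38 and 12.37 on the wild-type arrays. The lowest iPGC-1β array thus lay above the highest wild-type array. The difference was 0.83 ± 0.15 (SE), or 1.78-fold with a 95% interval of 1.43 to 2.22, with limma's adjusted p = 0.00191. An exact two-sided permutation test over all 252 relabelings of the arrays gave p = 0.00794, the smallest value that 5 arrays against 5 can give.

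A second Hspa9 probe, dimmer, gave the same picture. It read 11.01, 11.28, 11.71, 11.37 and 10.95 on iPGC-1β arrays, against 10.20, 10.35, 9.74, 10.54 and 9.98 on wild-type arrays, again with no overlap. In the fit over all 12349 kept probes, of which 9.67% were higher in iPGC-1β ileum, this probe rose 2.14-fold (limma's adjusted p = 0.00151). The difference of the brighter Hspa9 probe minus that of the dimmer was -0.26 on the log2 scale, which did not pass an exact permutation test on these arrays (p = 0.0714, adjusted p = 0.238 over 4 genes with 2 kept probes; a comparison chosen after the values were seen).

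Most of the measured cofactors of the Hsp70 motor rose with it. From a list of 12 partners and folding factors 10 were tested, of which 7 rose and 0 fell, with a median difference of 0.92. Grpel1, the nucleotide exchange factor that resets the matrix Hsp70, averaged 10.95 ± 0.18 in iPGC-1β ileum and 9.82 ± 0.23 in wild-type ileum (SD, n = 5 each), a difference of 1.13 with limma's adjusted p = 0.000220. Timm44, which tethers the motor to the import channel, rose 2.19-fold, and Dnaja3, a J-protein that delivers substrates to the matrix Hsp70, rose 2.01-fold. Dnajc15 and Dnajc19, membrane J-proteins of the motor, rose 2.53-fold and 1.79-fold. The further rises were Ppif, the peptidyl-prolyl isomerase cyclophilin D, at 3.09-fold, and Bcs1l, an AAA translocase that inserts the Rieske protein of complex III, at 1.48-fold.

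The 3 partners that did not pass the test had intervals that include 0. They were also the dimmest of the 10, with group means of 5.38 to 6.29, where those of the 7 that rose were 7.89 or more. A missed rise of these 3 is therefore not excluded. Grpel2, the second exchange factor, differed by -0.17, with a 95% interval of -0.61 to 0.26. Pam16, which the array lists as Magmas and which restrains the J-protein of the motor, differed by -0.06 (-0.46 to 0.34). Hscb, the J-protein of iron-sulfur cluster transfer, differed by -0.11 (-0.53 to 0.30). Within each array, Hspa9 and Grpel1 were set against each other: the Hspa9 difference minus that of Grpel1 was -0.29, and an exact permutation test gave p = 0.198 (adjusted p = 0.278 over 7 gene pairs).

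Hspd1 and Hspe1 encode Hsp60 and Hsp10, the barrel and the lid of the chaperonin, and neither passed the test. The brighter Hspd1 probe read 11.27, 11.75, 11.51, 11.33 and 11.17 on iPGC-1β arrays, against 11.17, 11.41, 10.84, 11.40 and 11.52 on wild-type arrays. The groups overlapped in part: iPGC-1β replicate 2 lay above all wild-type arrays, and wild-type replicate 3 and, marginally, replicate 1 lay below all iPGC-1β arrays. The difference of 0.14 ± 0.16 (SE) had a 95% interval of -0.21 to 0.49 (limma's adjusted p = 0.602); the upper end is a 1.40-fold change. The dimmer Hspd1 probe read 8.94, 8.13, 9.15, 8.63 and 8.78 on iPGC-1β arrays, against 8.10, 7.70, 7.57, 8.43 and 8.62 on wild-type arrays. The groups overlapped here too, and the difference of 0.64 had a 95% interval of 0.13 to 1.14 and also missed the threshold in the fit over probes (limma's adjusted p = 0.0824). The difference of the brighter probe minus that of the dimmer was -0.50, with p = 0.119 by the exact permutation test. The 2 Hspd1 probes therefore give a wide range for this gene, and the stretch of the transcript that each of them reads is not known here.

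Hspe1 read 10.33, 9.67, 9.14, 9.87 and 9.50 on iPGC-1β arrays, against 9.16, 9.80, 8.55, 9.17 and 9.90 on wild-type arrays. Both groups spread over more than a log2 unit and overlapped. The difference was 0.38 ± 0.27 (SE), with a 95% interval of -0.20 to 0.97 (limma's adjusted p = 0.361). Within arrays, the Hspd1 difference minus that of Hspe1 was -0.25, with an exact p = 0.421 (also after adjustment), so that no unequal change of the barrel and the lid was detected.

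Hspd1 and Hspe1 stand head to head and share 1 promoter. Windows from 250 bases before to 50 bases after each annotated start were read from RefSeq on GRCm38.p6, where 7 of the 10 genes, Lonp1 included, had 8 windows. Hspa9, Afg3l2 and Htra2 had no window, so that no motif was searched for them. The Hspe1 window, chr1:55087898-55088197 on the plus strand, shares 285 of its 300 bases with an Hspd1 window on the other strand. It is shown because the same stretch lies at the Hspe1 start and at 1 annotated Hspd1 start. The window of the other annotated Hspd1 start shares 4 bases with it and holds none of the motifs marked below.
Hspe1 promoter: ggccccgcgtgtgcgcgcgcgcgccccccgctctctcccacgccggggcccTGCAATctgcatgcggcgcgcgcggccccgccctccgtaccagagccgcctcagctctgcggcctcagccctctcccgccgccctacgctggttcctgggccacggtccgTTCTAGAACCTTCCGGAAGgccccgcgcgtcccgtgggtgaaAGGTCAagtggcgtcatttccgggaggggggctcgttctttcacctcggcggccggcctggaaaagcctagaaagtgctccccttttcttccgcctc
Capitals mark matches to motifs searched on both strands. Position -1 is the base before the start and position 1 the first base after it. At -89 and -79 stand heat shock element pairs of the form TTCNNGAA, found in 8.52% of all 32851 RefSeq windows, and at -84 a pair of the form GAANNTTC, found in 7.86%. They overlap 2 matches to CCGGAAG, the ETS site that GABP binds, at -80 and -77 on opposite strands (8.86% of windows). The letters TGCAAT, the core of the CHOP element described for the mitochondrial unfolded protein response, stand at -199 (8.40%), and a nuclear receptor half-site, AGGTCA, at -47 (16.3%). A match describes the letters and not a bound site.

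Trap1, the mitochondrial Hsp90, had 1 probe. It read 10.09, 10.56, 10.50, 10.42 and 10.49 on iPGC-1β arrays, against 10.00, 9.72, 9.84, 10.03 and 9.88 on wild-type arrays. The groups did not overlap, although iPGC-1β replicate 1 lay close to the highest wild-type array. Trap1 rose 1.43-fold, by 0.52 ± 0.13 (SE), with limma's adjusted p = 0.0149. Set against the chaperonin within arrays, the Trap1 difference was 0.38 larger than that of Hspd1, which missed the threshold (exact p = 0.0635, adjusted p = 0.148 over 7 pairs). That gap rests on the brighter Hspd1 probe; the dimmer one differed by 0.64, more than Trap1, so that its direction depends on the probe.

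**Figure D2:**
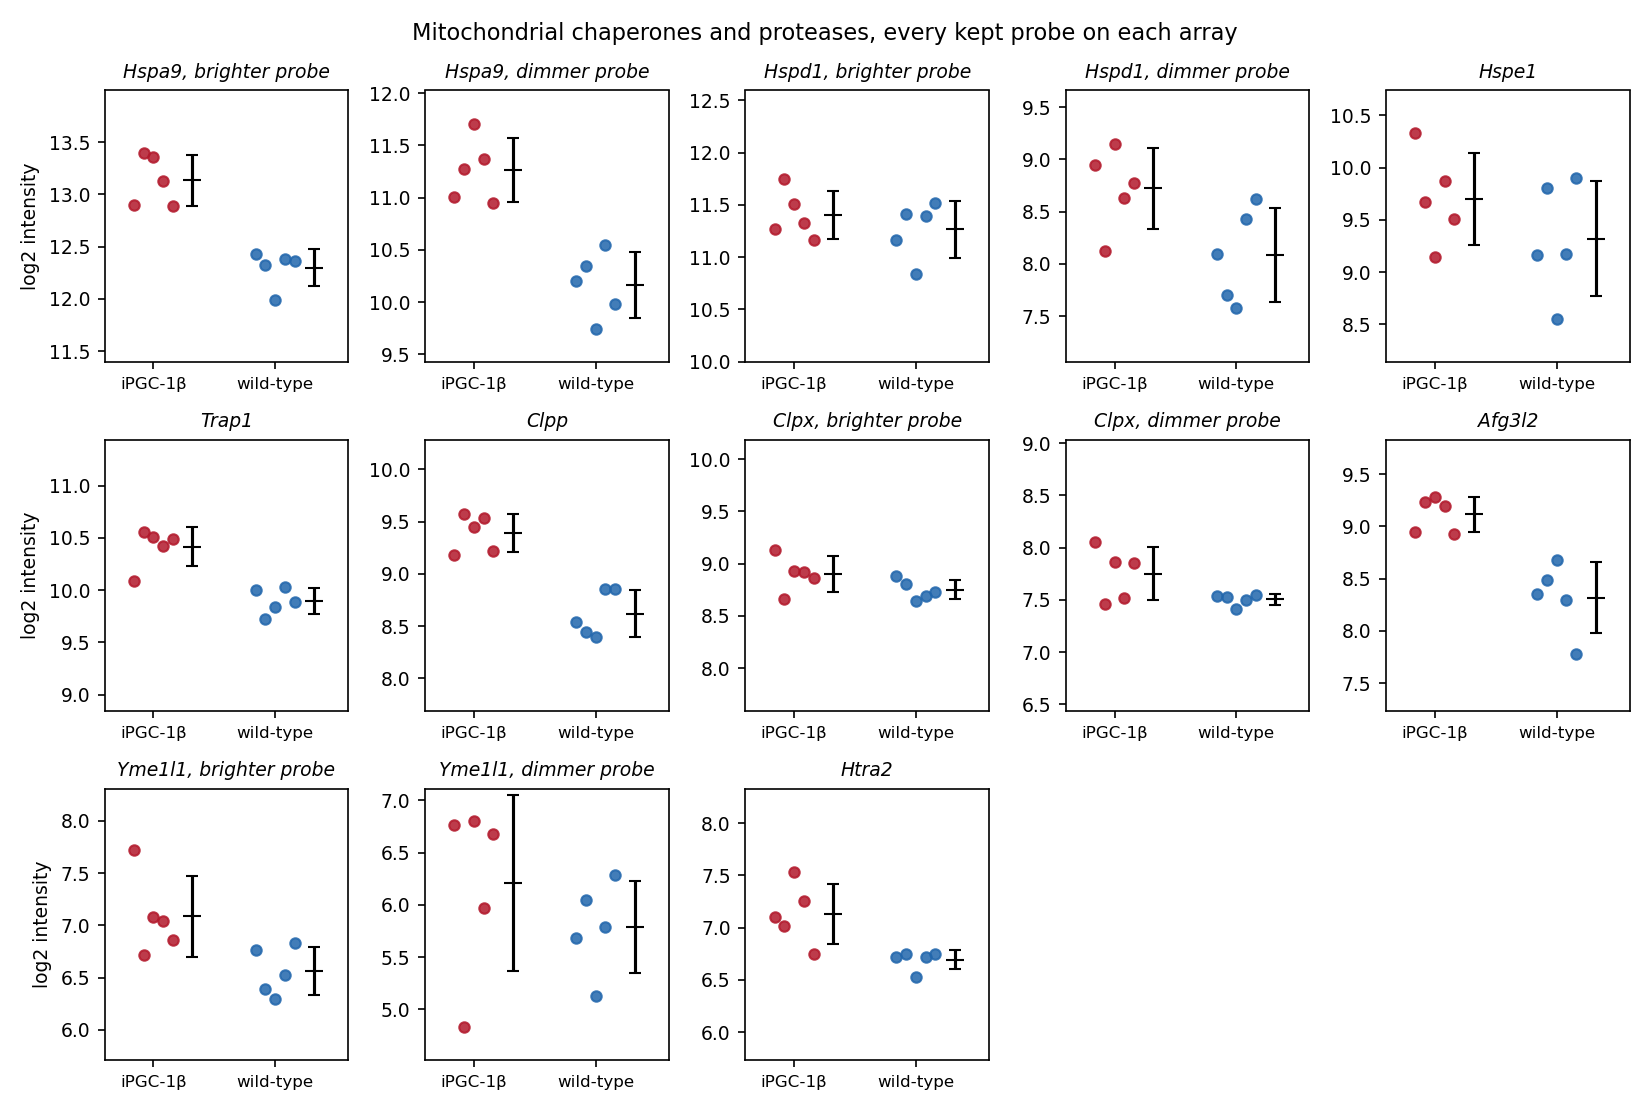
Log2 intensity (vertical axis) of each of the 13 kept probes of the chaperone and protease genes, with iPGC-1β arrays left (red) and wild-type arrays right (blue) in each panel; points are arrays, and the black bar beside each group is its mean and SD over 5 arrays. All iPGC-1β points lie above all wild-type points for both Hspa9 probes, Afg3l2, Clpp, Trap1 and, narrowly, Htra2, while the points of both groups intermix for the brighter Hspd1 probe and for Hspe1.

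In the matrix, Clpp is the barrel-shaped peptidase of the ClpXP protease and Clpx is the AAA unfoldase that feeds it. The Clpp probe read 9.18, 9.58, 9.45, 9.53 and 9.22 on iPGC-1β arrays, against 8.54, 8.44, 8.39, 8.86 and 8.86 on wild-type arrays. No arrays overlapped. Clpp rose 1.71-fold, by 0.77 ± 0.14 (SE), with limma's adjusted p = 0.00281 and an exact p = 0.00794.

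Clpx did not pass the test on either of its probes. The brighter one read 9.13, 8.66, 8.93, 8.92 and 8.86 on iPGC-1β arrays, against 8.88, 8.81, 8.64, 8.69 and 8.73 on wild-type arrays, with overlap. Its difference was 0.15 ± 0.12 (SE), with a 95% interval of -0.12 to 0.41 (limma's adjusted p = 0.444), whose upper end is a 1.33-fold change. The dimmer probe differed by 0.24, with a 95% interval of -0.06 to 0.54, whose upper end is a 1.46-fold change (limma's adjusted p = 0.261 in the fit over probes). Compared within arrays, the Clpp difference exceeded that of Clpx by 0.62, with an exact p = 0.0238, the smallest among the 7 pairs compared. After adjustment over those pairs p was 0.148, so that an unequal change of the peptidase and its unfoldase was not established.

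The ClpXP windows are shown because the subunits share a protease but differ in these letters; capitals mark motif matches as above. The Clpp window lies at chr17:56990014-56990313 on the plus strand and the Clpx window at chr9:65294010-65294309 on the plus strand.
Clpp promoter: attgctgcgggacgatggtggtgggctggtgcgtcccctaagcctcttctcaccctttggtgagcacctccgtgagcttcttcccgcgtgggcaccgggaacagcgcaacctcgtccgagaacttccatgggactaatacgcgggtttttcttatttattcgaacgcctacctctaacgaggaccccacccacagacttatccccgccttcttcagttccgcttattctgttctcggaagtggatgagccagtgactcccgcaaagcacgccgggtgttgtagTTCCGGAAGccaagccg
Clpx promoter: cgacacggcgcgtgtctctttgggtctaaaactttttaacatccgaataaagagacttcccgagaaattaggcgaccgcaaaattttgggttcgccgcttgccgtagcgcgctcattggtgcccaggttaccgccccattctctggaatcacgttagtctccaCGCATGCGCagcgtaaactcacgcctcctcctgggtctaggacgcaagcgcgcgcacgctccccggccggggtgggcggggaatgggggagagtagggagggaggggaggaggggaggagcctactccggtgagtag
In Clpp a TTCNNGAA pair at 34 overlaps a CCGGAAG site at 36, both after the start. In Clpx the letters GCGCATGCG, the core of the site for NRF1, a transcription factor of mitochondrial genes, stand on the minus strand at -87, and 1.75% of all windows hold them. Yme1l1 also had the CCGGAAG site, which 4 of the 8 windows held, among them the overlapping Hspd1 and Hspe1 windows. None of the 8 windows held TCAAGGTCA, the extended site of the estrogen-related receptors, which 0.423% of all windows hold, and Trap1 held the half-site AGGTCA. Searches for the following motifs are not marked in the sequences: AAGATGGCG, the YY1 core, was in 0 of the 8 windows (1.40% of all), the GC box GGGCGG in 7 (35.7%) and the CCAAT box in 3 (37.4%).

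On the inner membrane, Afg3l2 is a subunit of the m-AAA protease, which faces the matrix and processes and degrades inner-membrane proteins. It read 8.95, 9.23, 9.29, 9.19 and 8.93 on iPGC-1β arrays, against 8.36, 8.49, 8.68, 8.30 and 7.78 on wild-type arrays. Every iPGC-1β array exceeded every wild-type array, with wild-type replicate 5 the lowest. Afg3l2 rose 1.74-fold, by 0.80 ± 0.17 (SE), with limma's adjusted p = 0.00580. Spg7, or paraplegin, the partner of Afg3l2 in the mixed form of the complex, differed by 0.41 (95% interval 0.03 to 0.79) and missed the threshold (limma's adjusted p = 0.132). Afg3l1, a further m-AAA subunit of the mouse, differed by -0.05 (-0.35 to 0.25). The Afg3l2 difference was 0.39 larger than that of Spg7 within arrays, with an exact p = 0.103 (adjusted p = 0.181).

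Yme1l1, the i-AAA protease, faces the intermembrane space and cleaves OPA1. Its brightest probe read 7.72, 6.72, 7.08, 7.05 and 6.86 on iPGC-1β arrays, against 6.76, 6.40, 6.30, 6.53 and 6.83 on wild-type arrays. The groups overlapped through iPGC-1β replicate 2, which lay below 2 wild-type arrays. The difference of 0.52 ± 0.19 (SE) had a 95% interval of 0.12 to 0.93 and missed the threshold (limma's adjusted p = 0.0751). With single arrays left out it ranged from 0.36, without iPGC-1β replicate 1 (limma's adjusted p = 0.123), to 0.62, without iPGC-1β replicate 2, the one such fit that passed (limma's adjusted p = 0.0428). Without background correction it was 0.27 (limma's adjusted p = 0.0947). A second Yme1l1 probe differed by 0.42 (limma's adjusted p = 0.454), and the dimmest probe of the 3 was detected on 0 arrays. Oma1, the stress-activated protease that also cleaves OPA1, differed by 0.16 (-0.17 to 0.50), and the gap between the Yme1l1 and Oma1 differences was 0.36 (exact p = 0.0556, adjusted p = 0.148).

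Htra2 is the serine protease of the intermembrane space, which binds inhibitors of apoptosis when released. It read 7.11, 7.02, 7.53, 7.25 and 6.75 on iPGC-1β arrays, against 6.72, 6.74, 6.53, 6.72 and 6.74 on wild-type arrays. The groups did not overlap, but iPGC-1β replicate 5 and the highest wild-type arrays nearly met. The difference was 0.44 ± 0.15 (SE), with a 95% interval of 0.12 to 0.76 (limma's adjusted p = 0.0590; exact p = 0.00794). With single arrays left out it ranged from 0.34, without iPGC-1β replicate 3 (limma's adjusted p = 0.123), to 0.54, without iPGC-1β replicate 5, the one such fit that passed (limma's adjusted p = 0.0252). Without background correction it was 0.24 (limma's adjusted p = 0.0658).

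Among the 19 listed further proteases and prohibitins of the organelle 13 were tested, of which 5 rose and 0 fell, with a median of 0.21. With single arrays left out 3 to 4 rose, and the count was 3 without iPGC-1β replicate 4 or wild-type replicate 2, 3 or 4. Phb2, a prohibitin that forms a ring around the m-AAA protease, rose 1.70-fold, and Parl, the rhomboid protease that cleaves PINK1, rose 1.68-fold. Parl averaged 11.71 ± 0.14 in iPGC-1β ileum and 10.96 ± 0.03 in wild-type ileum (SD, n = 5 each; limma's adjusted p = 0.000728). The peptidases that trim targeting sequences after import included Pmpcb, the catalytic subunit of the processing peptidase, which rose 1.46-fold, and Mipep, the intermediate peptidase, which rose 1.48-fold. Nln, the oligopeptidase neurolysin, rose 1.33-fold (limma's adjusted p = 0.0460). Pmpca, the substrate-recognising partner of Pmpcb, differed by 0.21 with a 95% interval of -0.40 to 0.82, and the pair was not separable within arrays (exact p = 0.365).

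Genes of protein import and substrates of these proteases were also among those that rose, with Timm17a in both lists. Of 26 listed import genes 17 were tested, 9 rose and 0 fell, with a median of 0.60. Chchd4, the oxidoreductase of the intermembrane space, rose 2.37-fold, and Mtx1, a metaxin of the outer membrane, rose 2.19-fold. Of 13 listed substrates of these proteases 8 were tested, of which 6 rose and 0 fell, with a median of 0.74. Opa1, cleaved by Yme1l1 and Oma1, rose 2.05-fold, Timm17a, degraded by Yme1l1, rose 2.00-fold, and Tfam, the DNA-packaging factor that Lon degrades, rose 1.88-fold. Opa1 was dim, at 6.11 ± 0.19 in iPGC-1β ileum and 5.08 ± 0.23 in wild-type ileum (SD, n = 5 each). For scale, the Yme1l1 probe that was detected on 0 arrays averaged 4.68 in wild-type ileum. These values are of RNA, and protein levels or cleavage were not measured.

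Regulators and targets of the mitochondrial and integrated stress responses were also tested. Of 22 listed genes 18 were tested, of which 1, or 5.56%, rose and 0 fell, with a median of -0.08. Across all tested genes 9.88% were called higher and 7.41% lower. At an unadjusted p under 0.05, 2 of the 18, or 11.1%, were higher and 1 was lower, where 15.2% of all tested genes were higher. Whether the list differs from all tested genes in these shares was not tested. The called gene was Hsf1, the heat shock transcription factor, at 1.39-fold (limma's adjusted p = 0.0461). No gene of the list was called higher in 7 of the 10 fits that leave out 1 array, namely all but those without iPGC-1β replicate 1 or 2 or wild-type replicate 5, nor with median centring, without the filter on dim probes, with all kept probes tested, with a minimum of 1.5-fold or with the enterocyte covariate. Atf5, a transcription factor linked to the mitochondrial response, differed by -0.22 (95% interval -1.12 to 0.68), Atf4, which carries the integrated stress response, by -0.05 (-0.45 to 0.35), and Ddit3, which encodes CHOP, by 0.30 (-0.11 to 0.72). The Atf5 interval is wide, and its arrays spread by an SD of 0.70 in iPGC-1β ileum and 0.91 in wild-type ileum. The genes with the smallest unadjusted p after Hsf1 included Eif2ak1, a stress kinase, at 0.37 (limma's adjusted p = 0.0832), and Trib3, a target of ATF4, at -0.74 (limma's adjusted p = 0.124).

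Chaperones outside the mitochondrion were tested as a comparison. Of 32 listed cytosolic chaperones and cofactors 28 were tested, of which 0 rose by limma's test and 2, or 7.14%, fell. Their median difference was -0.05. Across all tested genes 7.41% were called lower. At an unadjusted p under 0.05, 0 of the 28 were higher and 3, or 10.7%, were lower, where 16.02% of all tested genes were lower. Hsph1, an Hsp70 exchange factor listed as Hsp105, fell to 8.61 ± 0.45 in iPGC-1β ileum, against 9.45 ± 0.26 in wild-type ileum (SD, n = 5 each), and Hsp90ab1, the constitutive cytosolic Hsp90, fell to 11.37 ± 0.33, against 11.95 ± 0.10 in wild-type ileum. Of 18 listed chaperones of the endoplasmic reticulum 14 were tested, of which 0 rose and 2, or 14.3%, fell, with a median of -0.37. At an unadjusted p under 0.05, 0 of them were higher and 7, or 50%, were lower. The matching shares of all tested genes were 7.41% called lower and 16.02% lower at an unadjusted p under 0.05. The falls were Dnajb9, a J-protein partner of BiP, by 0.56 on the log2 scale, and Pdia6, a disulfide isomerase, by 0.63 on the log2 scale. Hspa5, which encodes BiP itself, differed by -0.46 and missed the threshold (limma's adjusted p = 0.0621). With single arrays left out, 1 to 3 cytosolic chaperones fell, 1 without iPGC-1β replicate 4 or wild-type replicate 2, 3 or 4. Of the endoplasmic reticulum list 0 to 3 fell, with 0 without iPGC-1β replicate 2 or 4 or wild-type replicate 1 or 4 and 1 without iPGC-1β replicate 5 or wild-type replicate 2, 3 or 5. The difference between these lists and the mitochondrial genes was not itself tested, nor was that between these lists and all tested genes.

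**Figure D3:**
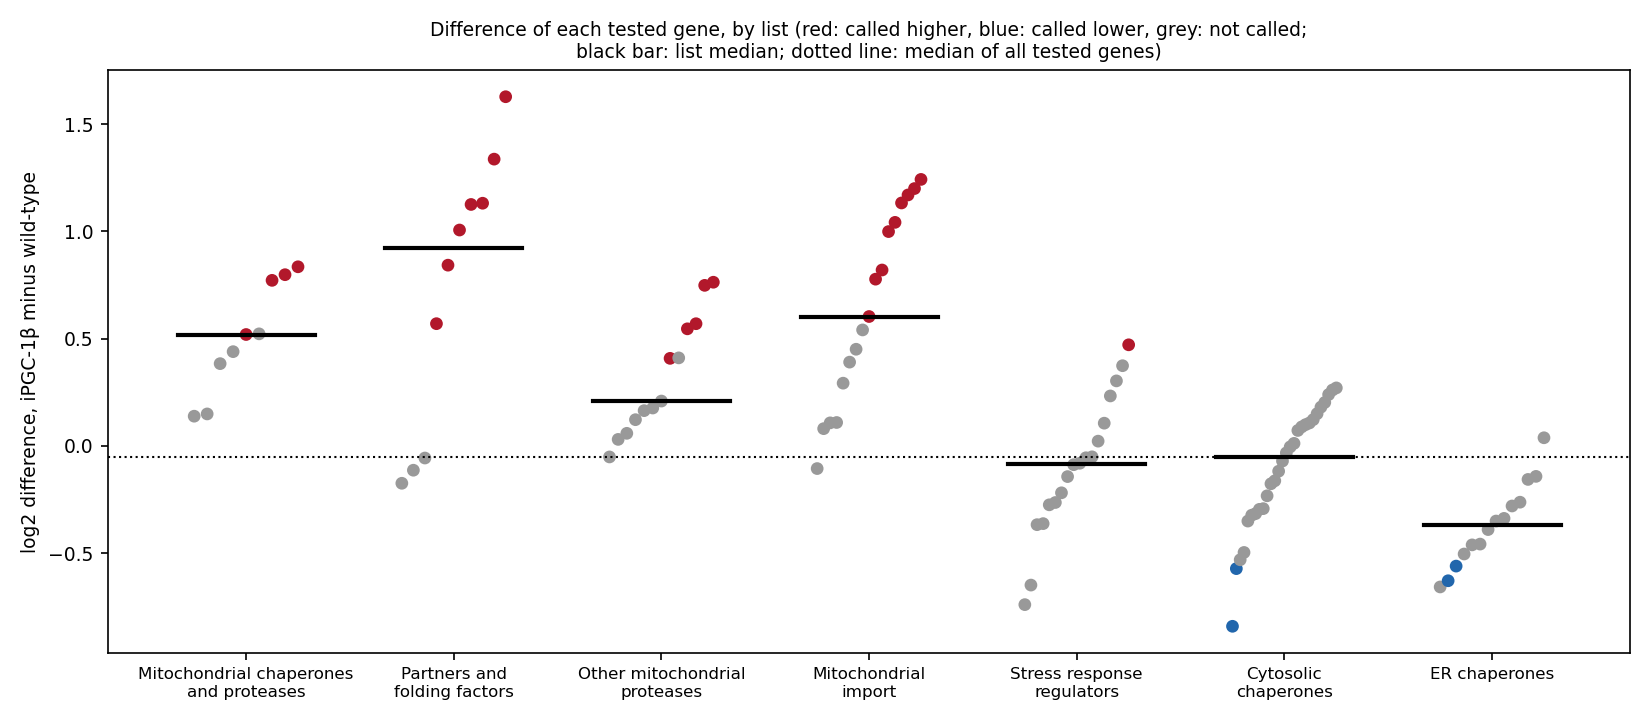
Log2 difference, iPGC-1β minus wild-type (vertical axis), of every tested gene in 7 lists; points are genes (red called higher, blue called lower, grey not called), black bars are list medians and the dotted line is the median of all tested genes, -0.05. Medians are 0.52 for the chaperones and proteases, 0.92 for the partners, 0.21 for the other proteases, 0.60 for import, -0.08 for the stress response regulators, -0.05 for cytosolic and -0.37 for endoplasmic reticulum chaperones.

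Across arrays, the mean over the 9 genes ranged from 9.41 to 9.64 on iPGC-1β arrays and from 8.86 to 9.18 on wild-type arrays. Wild-type replicate 3 was the lowest of its group for 7 of the 9 genes, and that array also had the lowest median intensity, 127.7, and the fewest detected probes, 12370. Without it the same count of 4 genes rose. iPGC-1β replicate 5 was the lowest of its group for 4 of the 9. The other genes whose pattern lay closest to the mean z-scored pattern of the 9, by root mean square difference over the 10 arrays, were Pdss1 at 0.273, Tfb2m at 0.300, Dnaja3 at 0.304, Zfp672 at 0.311 and Adck1 at 0.316. All 5 were called higher in iPGC-1β ileum. They were picked for following the pattern of the 9, which is higher in that group, so that these calls are no separate support.

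**Figure D4:**
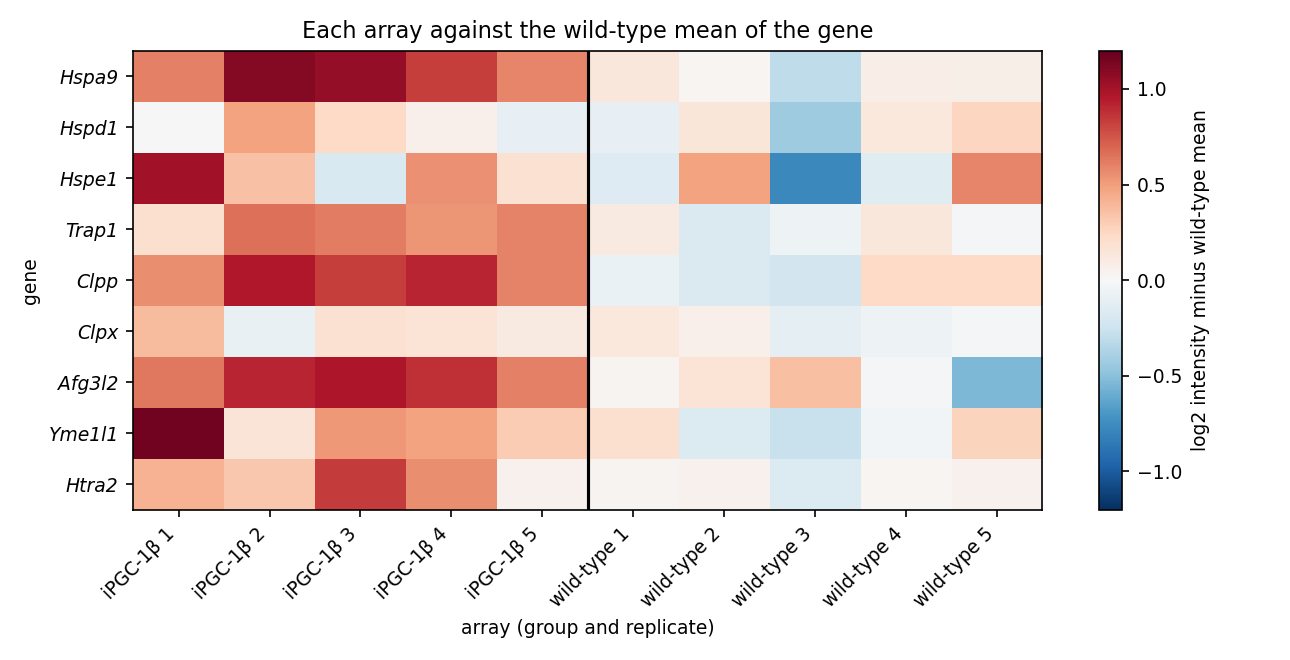
Log2 intensity minus the wild-type mean of the gene (colour scale) for the 9 measured chaperone and protease genes (rows) on the 5 iPGC-1β arrays (left of the line) and the 5 wild-type arrays (right of it). Hspa9, Afg3l2 and Clpp are above the wild-type mean on all 5 iPGC-1β arrays, and wild-type replicate 3 is the lowest of its group in 7 of the 9 rows.

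Markers of the ileum's cell types also differed between the groups. Of 18 listed enterocyte markers 13 were tested, of which 0 rose and 4, or 30.8%, fell, where 7.41% of all tested genes fell. Differences above 0 were seen for 2 of the 13. The mean log2 level of the 13 ranged from 11.42 to 11.99 on iPGC-1β arrays and from 11.77 to 12.52 on wild-type arrays. The clearest falls were Mep1b, a brush border peptidase, by 0.79 on the log2 scale, and Slc7a9, an amino acid transporter, by 0.75 on the log2 scale. With the enterocyte mean as a covariate 2 genes kept their call, Hspa9 and Afg3l2. Clpp then had a difference of 0.60 ± 0.21 (SE; limma's adjusted p = 0.0782) and Trap1 of 0.54 ± 0.20 (SE; limma's adjusted p = 0.0875). Without the covariate the SE was 0.14 for Clpp and 0.13 for Trap1. The enterocyte mean itself differed by -0.56 between the groups, so that this fit cannot separate genotype from enterocyte level. None of the 12 tested crypt and cycling markers was called by limma, with a mean of 7.49 to 8.01 on iPGC-1β arrays and of 7.55 to 8.41 on wild-type arrays, and the 4 calls stood with that mean as a covariate. The 5 tested T cell markers had 0 calls, with a mean of 5.60 to 8.01 on iPGC-1β arrays and of 7.68 to 8.69 on wild-type arrays, and the 3 tested B cell markers 0 calls, with a mean of 6.47 to 8.52 on iPGC-1β arrays and of 7.32 to 9.34 on wild-type arrays. The lowest values of both lists in iPGC-1β ileum were of replicate 3 and the highest in wild-type ileum of replicate 5, and without these 2 arrays the same 4 genes were called. Of the other lists, 1 of 4 goblet cell markers fell, the transcription factor Spdef, and 2 of 8 enteroendocrine markers fell, the hormones Sct and Gip. Both lists also held differences above 0, for 4 of the 8 enteroendocrine and 1 of the 4 goblet cell markers. The 6 Paneth cell, 7 smooth muscle and 9 stromal and endothelial markers held 0 calls by limma. With single arrays left out, the goblet cell call was lost in 7 of 10 fits, and 0 or 1 enteroendocrine marker fell in each of them. The part of cell composition in the rises was not tested.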

How the data were processed

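Per the labels' protocols, Qiazol-extracted total RNA of the ileum was biotin-labelled for Illumina arrays. The submitters' processing notes name GenomeStudio without a version. Per the file headers, the deposited table pairs a linear intensity with a detection p-value on each array. The authors' processed intensity values, deposited as a second table whose making is not stated, served as an alternative. All columns of sample values were matched by title or accession, with 0 left unused.

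Intensities were corrected with normexp (background inferred from detection p-values, offset 16), quantile-normalized and log2-transformed with neqc (limma 3.58.1, R 4.3.3). Probes with a detection p under 0.05 on at least 5 of 10 arrays were kept, 12349 probes, and the kept probe with the highest mean stood for each of 9365 genes. Groups were compared with lmFit and eBayes without covariates. Gene pairs were compared by the within-array difference with two-sided exact permutation tests. The fit was tested on simulated data. Symbols were used as the array's design gives them, and 17 listed genes were matched through RefSeq synonyms.

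Groups came from the genotype label. Replicate numbers only name arrays and pair none. The labels state neither sex nor slide, and do not tie mice to litters, so p-values reflect only how these samples spread, which may be partly technical, and 5 arrays per group limit the precision. The genes and lists were chosen with earlier results of these data known. Named are all chaperone and protease genes, called genes of the partner and protease lists, up to 4 genes of each other list and up to 2 of each marker list with the smallest p, the 5 nearest patterns and the label check; further genes (Grpel2, Pam16, Hscb, Spg7, Afg3l1, Oma1, Pmpca, Atf4, Atf5, Ddit3, Hspa5) are named for their role, chosen after their values were seen. Alternatives covered background correction, normalization, probe filter and choice, variance model, thresholds, marker covariates and leaving out arrays. 1 called gene of the substrate list is counted but not reported here by name.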

Additional observations from a re-analysis of the deposited data

Results flagged for a closer look

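Among 40 checks of 5 arrays for 1 that stands apart by Dixon's test, 4 found one, and chance gives about 1 in 20. Wild-type replicate 3 lay apart for the brighter Hspa9 probe, where its log2 intensity was 11.99 and the rest of its group read 12.33 to 12.43, and for Htra2, at 6.53 against 6.72 to 6.74. iPGC-1β replicate 1 lay apart for Trap1, at 10.09 against 10.42 to 10.56 on the other iPGC-1β arrays. The within-array difference of Afg3l2 and Spg7 on wild-type replicate 5 was -1.31, with -0.56 to -0.35 on the rest of that group. Leaving out each array in turn kept Hspa9, Trap1, Clpp and Afg3l2 called in all 10 cases.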

How the results depend on the processing

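Under 25 alternatives, Hspa9 kept its call in all, with a difference of 0.73 to 0.97, and so did Afg3l2, at 0.62 to 1.23, the highest with the enterocyte covariate. Clpp kept its call in 24 (0.60 to 0.85) and Trap1 in 23 (0.45 to 0.60). Hspd1, Hspe1 and Clpx were called in 0, with differences of -0.12 to 0.39, -0.23 to 0.67 and 0.09 to 0.21. The count of genes called higher fell to 2 with the enterocyte marker mean as a covariate, and there Hspd1 turned to -0.12 (limma's adjusted p = 0.765) and Hspe1 to -0.23 (limma's adjusted p = 0.711); the cause was not tested. A minimum of 1.5-fold left 3, without Trap1. Array weights and a threshold of 0.10 each gave 6, adding Yme1l1 and Htra2, and a detection p under 0.01 on all arrays gave 5, adding Htra2. Leaving out each array in turn gave 4 to 5 called higher and 0 called lower.

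For the pairs, the Clpp and Clpx gap was 0.68 (exact p = 0.0571) without wild-type replicate 5 and iPGC-1β replicate 3. With any single array left out it was 0.52 to 0.73, the exact p running from 0.00794 to 0.0476, unadjusted over the pairs. The Pmpca and Pmpcb gap was -0.34 (exact p = 0.0317, unadjusted) both without background correction and with the authors' processed values. The Yme1l1 and Oma1 gap was 0.37 (exact p = 0.0397, unadjusted) under median centring, 0.14 (exact p = 0.270) without background correction and 0.24 to 0.49 with single arrays left out, where the exact p ran from 0.00794, without iPGC-1β replicate 2, to 0.143, without wild-type replicate 5. That of Trap1 and Hspd1 was 0.30 to 0.47 with single arrays left out, the exact p running from 0.0317, without wild-type replicate 3, to 0.135. The partners had 4 to 7 genes called higher over the same alternatives and 0 called lower, the further proteases 2 to 5, the stress regulators 0 to 2, and cytosolic and endoplasmic reticulum chaperones 0, with 1 to 3 and 0 to 5 called lower. No paired analysis was possible because the replicate numbers pair no arrays. Yme1l1 and Htra2, whose probes are dim, were the genes nearest to the threshold.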
